A study of Homo sapiens with 2 samples.

Results

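The human guanylate binding proteins GBP1, GBP2, GBP3, GBP4 and GBP5 are large GTPases of the dynamin superfamily, and their levels were read in RNA of the breast cancer line MDA-MB-231 with and without a treatment called CEL. The genes were selected by name, as the rows of the deposited expression table whose gene name equals a member, and 5 of the 60978 genes in the table were found this way. They were picked with the FPKM (fragments per kilobase of gene length, scaled to the counted reads of the library) of both libraries already known, so their differences between the libraries are a description and were given no test. All 5 reached 1 FPKM in at least 1 library, as did 13745 named genes in all. MDA-MB-231 is a widely used line of human triple-negative breast cancer, the kind that lacks the hormone receptors and high HER2 of other breast cancers. The CEL group was 1 library from cells incubated for 24 h with 1 µM CEL, and the Control group was 1 library from cells incubated for 24 h. The labels name no vehicle for Control and do not spell out CEL. The series concerns, by its title, exosomes of M1 macrophages given with CEL against triple-negative breast cancer.

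The libraries held 17199398 reads in genes for CEL and 14821148 for Control. All 6 MDA-MB-231 markers looked for were measured, CD44 at 1024 FPKM in CEL and 928 FPKM in Control, and of 6 epithelial and hormone receptor markers, ESR1 and PGR were listed at 0 in both. Of the same list, ERBB2 (the HER2 gene) had 48.8 FPKM in CEL and 71.7 FPKM in Control, EPCAM had 8.97 FPKM in CEL and 17.2 FPKM in Control, GATA3 had 8.60 FPKM in CEL and 10.8 FPKM in Control, and CDH1 was under 1 FPKM in both. Among 10 leukocyte markers, 2 (CD14 and CSF1R) reached 1 FPKM, and the summed level of the list was 3.81 FPKM in CEL and 4.92 FPKM in Control. CD163 and LYZ were among those at 0, but 34.0% of the exon bases of LYZ overlap another gene, so its count is uncertain. None of 4 endothelial markers reached 1 FPKM, with a summed level of 0.987 FPKM in CEL and 0.703 FPKM in Control. Of 5 fibroblast markers 3 did, with a summed level of 25.8 FPKM in CEL and 38.3 FPKM in Control. The part of such cells in the GBP levels was not tested. With 1 library per group no difference has a replicate check. Intervals below are exact 95% counting intervals, which compare these libraries and not the conditions, and PCR reads without molecular identifiers are not independent molecules.

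GBP genes are among the genes most strongly switched on by interferon-gamma. The interferon-gamma receptor activates the kinases JAK1 and JAK2, and the signal reaches GAS elements in the DNA and induces IRF1, which binds ISRE elements. The proteins bind and hydrolyse GTP and assemble on membranes and on the surface of intracellular bacteria. On Gram-negative bacteria GBP1 starts a coat that GBP2, GBP3 and GBP4 can join, and the coat recruits caspase-4, which cleaves gasdermin D. GBP1, GBP2 and GBP5 end in a CaaX motif whose cysteine receives a prenyl lipid anchor, and GBP3 and GBP4 do not. In breast tumours both immune cells and tumour cells can express them.

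The 5 genes lie within 266 kb on the minus strand of chromosome 1, in the order GBP3, GBP1, GBP2, GBP4 and GBP5 from low to high coordinates. The promoters are shown because they carry the letters through which interferon signalling is known to reach GBP genes. Promoter windows of 250 bases before to 50 after the start site were found for 3 of 5 members in RefSeq (GRCh38.p14, minus strand, written 5′ to 3′), namely GBP1 at chr1:89065159-89065458, GBP3 at chr1:89022817-89023116 and GBP4 at chr1:89198893-89199192. Capitals mark matches to the ISRE core GAAANNGAAA or the GAS motif TTCNNNGAA, searched on both strands; here the ISRE core reads on the other strand and so appears as its reverse complement.
GBP1 promoter: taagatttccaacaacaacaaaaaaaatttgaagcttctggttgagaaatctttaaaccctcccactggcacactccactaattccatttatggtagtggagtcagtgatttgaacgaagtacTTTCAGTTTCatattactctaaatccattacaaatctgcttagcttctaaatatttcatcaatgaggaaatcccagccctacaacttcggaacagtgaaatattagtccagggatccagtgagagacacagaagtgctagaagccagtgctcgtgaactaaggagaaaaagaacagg
GBP3 promoter: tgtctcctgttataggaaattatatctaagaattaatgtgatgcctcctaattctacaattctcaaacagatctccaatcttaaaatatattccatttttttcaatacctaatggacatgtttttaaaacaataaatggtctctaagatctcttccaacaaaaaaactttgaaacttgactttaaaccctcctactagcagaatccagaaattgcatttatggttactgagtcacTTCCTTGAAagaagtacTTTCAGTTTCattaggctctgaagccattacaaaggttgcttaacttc
GBP4 promoter: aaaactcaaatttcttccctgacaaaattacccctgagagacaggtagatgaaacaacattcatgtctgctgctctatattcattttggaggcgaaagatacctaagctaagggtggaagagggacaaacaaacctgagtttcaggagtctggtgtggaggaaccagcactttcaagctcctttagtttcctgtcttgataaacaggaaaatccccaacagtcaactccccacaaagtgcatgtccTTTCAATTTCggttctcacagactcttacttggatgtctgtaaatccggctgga

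Each of the 3 windows held the ISRE core, which 3.57% of 35116 promoters of the same length hold. Counted from the start site, it lay at bases -127 to -118 in GBP1, at 3 to 12 in GBP3 and at -4 to 6 in GBP4. The match was GAAACTGAAA in GBP1 and GBP3 and GAAATTGAAA in GBP4. The GAS motif, held by 7.66% of promoters, was found in the GBP3 window at -15 to -7 as TTCCTTGAA. A motif of the transcription factor NF-kappaB was found in the GBP4 window at -45 to -36 as GGGATTTTCC on the other strand, and 11.3% of promoters hold that motif. The GBP1 and GBP3 windows aligned over 107 bases, of which 85 (79.4%) were identical, and this stretch holds the ISRE core of both. The best local alignment of the GBP4 window covered 9 bases with GBP1 and 8 bases with GBP3. Thus the windows of GBP1 and GBP3 share a stretch of sequence that the GBP4 window does not, and all 3 hold an ISRE core within this distance of the start.

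The ends of the coding sequences are shown because the lipid anchor is attached there. Capitals mark a cysteine codon 4 codons before the stop, the place of the CaaX cysteine, in the last 30 coding bases of the main transcript (GENCODE 29, minus strand of chromosome 1, 5′ to 3′).
GBP1 coding end: agacgacgaaaggcaTGTaccataagctaa
GBP2 coding end: tcattggagccaataTGTaacatactctaa
GBP3 coding end: agatatatgtcgcataagctaaagatctaa
GBP4 coding end: gggacaaaatatcttggctcacgtatttaa
GBP5 coding end: aataacgatgatccaTGTgttttactctaa
The cysteine codon stood there in GBP1, GBP2 and GBP5 and not in GBP3 and GBP4.

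GBP2, GBP4 and GBP5 were lower in CEL than in Control by a rule of size, and no member was higher by it. The rule asked for 1.5-fold on the scale log2((CEL FPKM + 1)/(Control FPKM + 1)), which understates changes of low genes. Of the 5 members 3 were lower and 0 higher, where 10.2% of the 13745 measured genes were at least 1.5-fold lower and 8.97% at least 1.5-fold higher. At 2-fold, GBP4 and GBP5 were lower and 0 members higher, where 3.24% of measured genes were lower and 2.7% higher. The median log2 fold was -0.69 over the members and 0.0022 over all measured genes. Because the rule that picked the members used these same values, nothing is read from the difference between the shares. In a bulk culture, less RNA in every cell and fewer cells that hold the RNA cannot be told apart.

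GBP1, the member that starts the coat on bacteria, lies at chr1:89052319-89065230 (GRCh38, ENSG00000117228). It had 141 FPKM (interval 135 to 147, from 2280 reads) in CEL and 97.4 FPKM (92.3 to 103, from 1356 reads) in Control. The plain ratio of CEL to Control was 1.45, with an interval of 1.35 to 1.55. Its log2 fold of 0.53 lay under the 0.58 that the rule asks for, and the interval of the ratio includes 1.5, so at this depth the gene cannot be placed on one side of that line. Of all measured genes, 10.8% had a log2 fold as high or higher. With the trend of log2 fold on deposited gene length removed, the value was 0.33. That step takes GBP1 at its deposited 939 bases, though its main coding transcript has 3035.

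GBP3, a close relative of GBP1 that joins its coat, lies at chr1:89006679-89022894 (ENSG00000117226). It had 157 FPKM (152 to 162, from 4208 reads) in CEL and 106 FPKM (102 to 110, from 2451 reads) in Control, the most reads of the family in both libraries. The ratio of CEL to Control was 1.48 (1.41 to 1.56), again with 1.5 inside the interval, and the log2 fold was 0.56. A fold as high or higher was seen in 9.71% of measured genes. GBP1 and GBP3 thus had nearly the same ratio, and both intervals lie wholly above 1.

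GBP2, a prenylated member that can join the coat and that, like GBP5, inhibits the protease furin, lies at chr1:89106132-89150456 (ENSG00000162645). GBP2 had 21.3 FPKM (20.1 to 22.6, from 1103 reads) in CEL and 35.1 FPKM (33.4 to 36.9, from 1563 reads) in Control. It was 1.64-fold lower in CEL, with an interval of 1.52 to 1.78, and the log2 fold was -0.69. A fold as low or lower was seen in 7.35% of measured genes. GBP2 is therefore the member just past the rule on the low side, as GBP3 is the member nearest to it on the high side.

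GBP4, which takes part in recruiting caspase-4 to the coat, lies at chr1:89181144-89198942 (ENSG00000162654). GBP4 had 7.67 FPKM (6.86 to 8.56, from 324 reads) in CEL and 33.0 FPKM (31.2 to 34.9, from 1201 reads) in Control. It was 4.30-fold lower in CEL (interval 3.8 to 4.88), with a log2 fold of -1.97. This was the lowest log2 fold of the 5 members, and 0.269% of measured genes were as low or lower. In Control its level was close to that of GBP2, and in CEL the GBP4 level was well under that of GBP2.

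GBP5, a prenylated member that binds to the Golgi and, in mouse, promotes assembly of the NLRP3 inflammasome, lies at chr1:89258950-89272804 (ENSG00000154451). GBP5 had 1.32 FPKM (0.987 to 1.72, from 53 reads) in CEL and 4.33 FPKM (3.66 to 5.08, from 150 reads) in Control. It was 3.28-fold lower in CEL (2.39 to 4.58), the widest interval of the family. The log2 fold was -1.20, and 1.88% of measured genes were as low or lower. Because GBP5 is the least abundant member, its log2 fold depends on the pseudocount. With 5 FPKM in place of 1 it was -0.56, which no longer passes the rule.

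**Figure D1:**
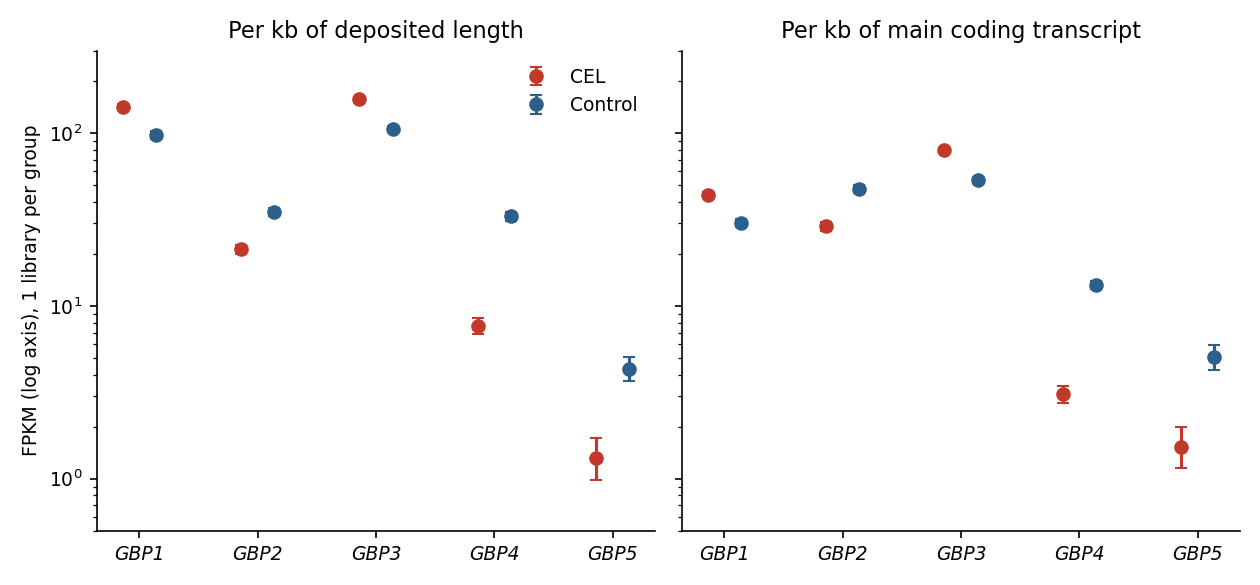
Level of each GBP gene in the CEL library (red, left) and the Control library (blue, right), in FPKM on a log axis, with points for the single library of each group and bars for the 95% counting interval. The left panel uses the deposited gene length and the right panel the length of the main coding transcript. GBP4 was at 7.67 FPKM in CEL and 33.0 FPKM in Control in the left panel, and GBP1 and GBP2 change places in Control between the panels.

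**Figure D2:**
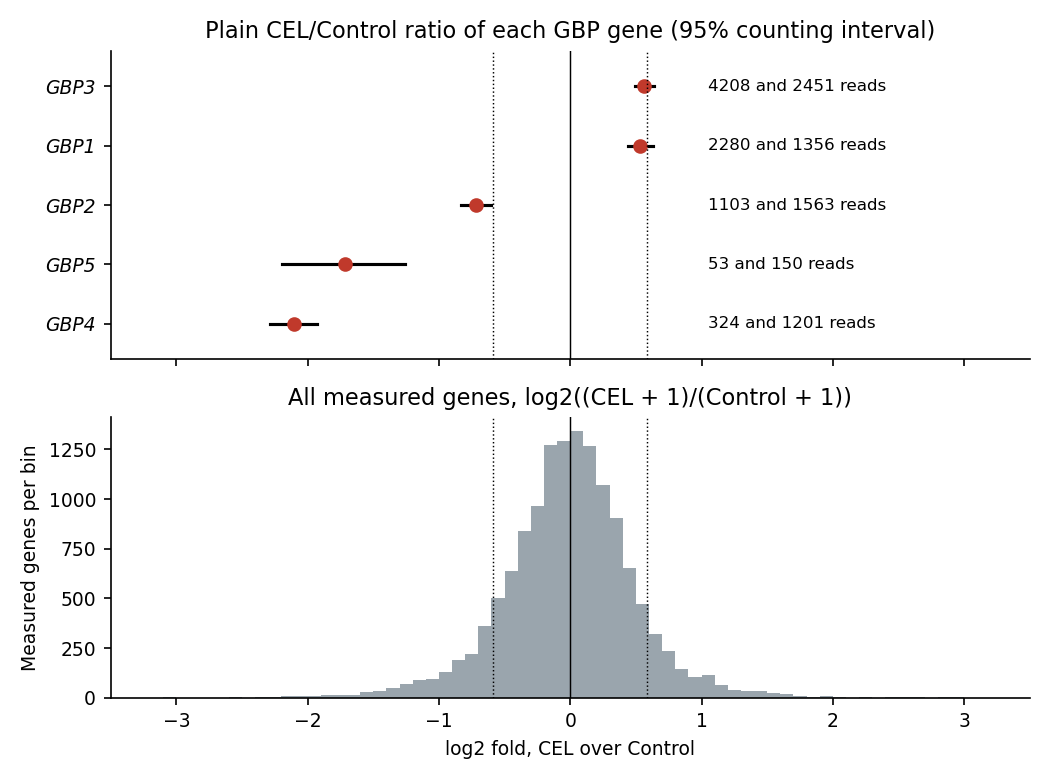
Upper panel: plain ratio of CEL to Control for each GBP gene on a log2 axis, with the 95% counting interval and the reads in CEL and Control. Lower panel: number of measured genes in bins of log2((CEL + 1)/(Control + 1)). Dotted lines mark 1.5-fold. In the upper panel GBP3 and GBP1 lie near the upper line, GBP2 just past the lower line, and GBP5 and GBP4 far to its left. The panels use different scales, and on that of the lower panel GBP5 is at -1.20 and GBP4 at -1.97.

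The other GBP genes in the table did not reach 1 FPKM. GBP6 had 0.0869 FPKM in CEL and 0.130 FPKM in Control, from 7 and 9 reads. The pseudogene GBP1P1 had 2 reads in CEL and 6 reads in Control. GBP7 had 0 reads in both, which allows up to 3 reads, or 0.0863 FPKM in CEL at its length, for counting error only. GBP2 overlaps 25.3% of the exon bases of GBP7, so this count is uncertain. Nearly all reads counted for GBP genes in both libraries were thus those of GBP1 to GBP5.

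Although single members differed in opposite directions, the reads of the family as a whole were nearly the same share of each library. The 5 genes together held 7968 reads in CEL and 6721 in Control, or 463 in CEL and 453 in Control for each 1000000 reads in genes. The ratio of 1.02 had an interval of 0.989 to 1.06. Which side of 1 this ratio of reads falls on depends on the scaling. It was 0.994 when rescaled by each library's summed FPKM, the factor used for TPM, and 0.978 with upper quartile scaling. The 0.994 is still a ratio of reads and not of summed TPM. GBP1 and GBP3 together had 377 in CEL and 257 in Control for each 1000000 reads in genes, a ratio of 1.47 (1.41 to 1.53). GBP2, GBP4 and GBP5 together had 86.0 in CEL and 197 in Control, 2.28-fold lower in CEL (2.15 to 2.43). These sets were formed from the members' own values, so their sums describe the size of the opposite differences and no more. Without GBP3, the member with the most reads, the summed ratio was 0.759. The near equality is of reads, which count a longer gene more. Summed as FPKM on the deposited lengths, the 5 members had 328 FPKM in CEL and 276 FPKM in Control.

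The make-up of the GBP reads therefore differed between the libraries. GBP3 gave 52.8% of GBP reads in CEL and 36.5% in Control, and GBP1 gave 28.6% in CEL and 20.2% in Control. GBP2 gave 13.8% in CEL and 23.3% in Control. GBP4 gave 4.07% (exact binomial interval 3.64 to 4.52) in CEL and 17.9% (17.0 to 18.8) in Control. For GBP5 the shares were 0.665% in CEL and 2.23% in Control. GBP1 and GBP3 together made up 81.4% (80.6 to 82.3) of GBP reads in CEL and 56.6% (55.4 to 57.8) in Control.

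**Figure D3:**
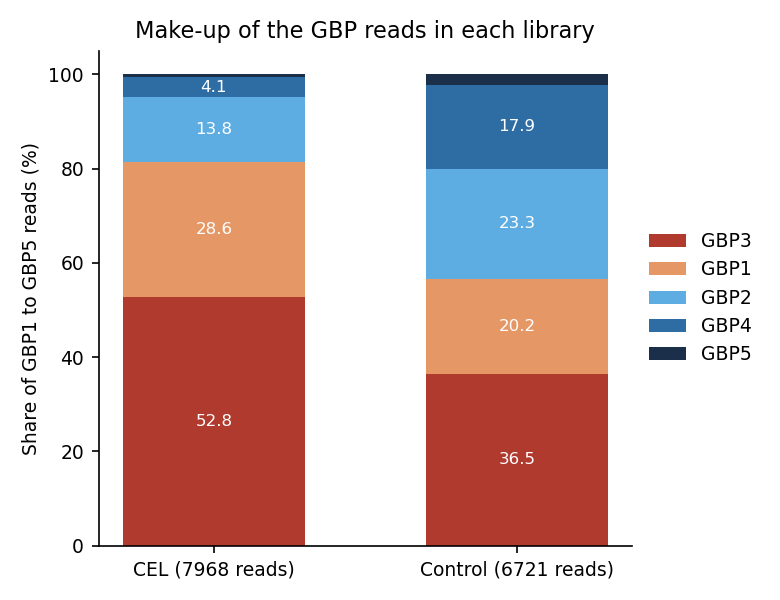
Share of the GBP1 to GBP5 reads that each gene gave (%, stacked bars starting at 0), for the CEL library on the left with 7968 reads and the Control library on the right with 6721 reads. GBP3 and GBP1 (warm colours) fill 81.4% of the CEL bar and 56.6% of the Control bar.

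Ratios between members within a library do not depend on library size. For each read of GBP3 there were 0.542 reads of GBP1 in CEL and 0.553 in Control, and the ratio of these ratios was 0.979 (0.900 to 1.07). The interval includes 1, and its limits allow for counting error only. Reads that match both genes and the lack of replicates are not covered by it. For each read of GBP2 there were 0.294 reads of GBP4 in CEL and 0.768 in Control, so GBP4 was 2.62-fold lower relative to GBP2 (2.26 to 3.03). GBP5 was 2.00-fold lower relative to GBP2 (1.44 to 2.81). Relative to GBP5, GBP4 had 6.11 reads in CEL and 8.01 in Control, with a ratio of ratios of 0.764 (0.541 to 1.09) that includes 1. Of the 5 pairs compared, the widest gap was between GBP4 and GBP1. There were 0.142 reads of GBP4 for each read of GBP1 in CEL and 0.886 in Control, 6.23-fold lower in CEL (5.41 to 7.19). Other pairs, such as GBP4 and GBP3, were not compared.

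On the deposited FPKM the order of levels was GBP3, GBP1, GBP2, GBP4 and GBP5 in both libraries. In Control the intervals of GBP3 (102 to 110 FPKM) and GBP1 (92.3 to 103 FPKM) overlap, as do those of GBP2 (33.4 to 36.9 FPKM) and GBP4 (31.2 to 34.9 FPKM), which does not show that their levels were equal. The intervals of GBP1 and GBP2, and of GBP4 and GBP5, lie far apart in Control. In CEL no intervals of neighbouring members overlap. Among all named genes, ranked by FPKM, GBP3 stood at 801 in CEL and 1213 in Control and GBP1 at 923 in CEL and 1351 in Control. GBP2 stood at 5721 in CEL and 4001 in Control. GBP4 moved furthest, with rank 8668 in CEL and 4167 in Control, and GBP5 had rank 12292 in CEL and 10011 in Control.

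The order between genes rests on the length used. The deposited length is 939 bases for GBP1, whose main coding transcript has 3035 bases, and 1560 bases for GBP3, whose main transcript has 3067. For GBP2 the deposited 3007 bases exceed the 2220 of the main transcript, and for GBP5 the deposited 2339 exceed 2011. For GBP4 the deposited length is 2455 bases and the main transcript 6127. Per kilobase of main transcript, GBP2 had 28.9 FPKM in CEL and 47.5 FPKM in Control, and GBP1 had 43.7 FPKM in CEL and 30.1 FPKM in Control. GBP2 then stood above GBP1 in Control, and it did so as well per kilobase of coding sequence, where GBP2 had 59.4 FPKM and GBP1 51.4 FPKM. On this main transcript scale GBP3 led with 79.8 FPKM in CEL and 53.9 FPKM in Control, GBP4 had 3.07 FPKM in CEL and 13.2 FPKM in Control, and GBP5 had 1.53 FPKM in CEL and 5.03 FPKM in Control. The order in CEL was the same with each of the 4 lengths tried. The ratio of CEL to Control for a gene does not depend on its length.

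GBP1 and GBP3 are close copies, which bears on how reads could be split between them. Their coding sequences are 91.7% identical, GBP1 and GBP2 are 82.5% identical and GBP2 and GBP3 82.7%. GBP4 is 64.0% to 66.5% identical to the other members and 85.0% identical to GBP7. Of the 50-base windows of the GBP1 main transcript, 13.3% also occur in a transcript of another gene (GBP1P1, GBP2 or GBP3). That share was 4.14% for GBP3, 3.09% for GBP2, 4.08% for GBP4 and 0% for GBP5. At 100 bases it was 1.87% for GBP1, 0.0995% for GBP4 and 0% for GBP2, GBP3 and GBP5. No source used here says how reads matching more than 1 gene were counted, and the split between GBP1 and GBP3 is uncertain for reads from such windows. Exons of GBP2 overlap those of GBP7 over 9.89% of their bases, and GBP7 had 0 reads. No other member overlaps another gene over more than 3.98% of its exon bases.

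The genes around the GBP cluster were read in the same way. Within 1 Mb of the cluster on either side, 11 other named genes were measured, of which 2 were higher by the 1.5-fold rule, 0 lower and 9 between. Over all measured genes 8.97% were higher and 10.2% lower, so with 11 genes these counts are near the background. PTGES3P1, a pseudogene between GBP1 and GBP2, had 5.66 FPKM in CEL and 6.15 FPKM in Control. On the GBP3 side, KYAT3, RBMXL1, ELOCP19, GTF2B and PKN2 were all within 1.5-fold, among them PKN2, a kinase, with 63.1 FPKM in CEL and 79.4 FPKM in Control. Beyond GBP5 lie genes of subunits of volume-regulated anion channels. Of these, LRRC8C rose to 16.4 FPKM in CEL, against 9.67 FPKM in Control. LRRC8D had 76.3 FPKM in CEL and 51.7 FPKM in Control, and LRRC8B had 2.88 FPKM in CEL and 1.71 FPKM in Control. Their plain ratios of CEL to Control were 1.70 (1.51 to 1.91) for LRRC8C, 1.48 (1.37 to 1.59) for LRRC8D and 1.68 (1.37 to 2.07) for LRRC8B. LRRC8B stayed under the rule only because of the pseudocount. GEMIN8P4, a pseudogene, was the other gene past the rule, with 5.10 FPKM in CEL and 2.96 FPKM in Control, and ZNF326 was within it. GBP3 and GBP1, with log2 folds above 0, lie on one side of PTGES3P1, and GBP2, GBP4 and GBP5, with log2 folds below 0, on the other.

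**Figure D4:**
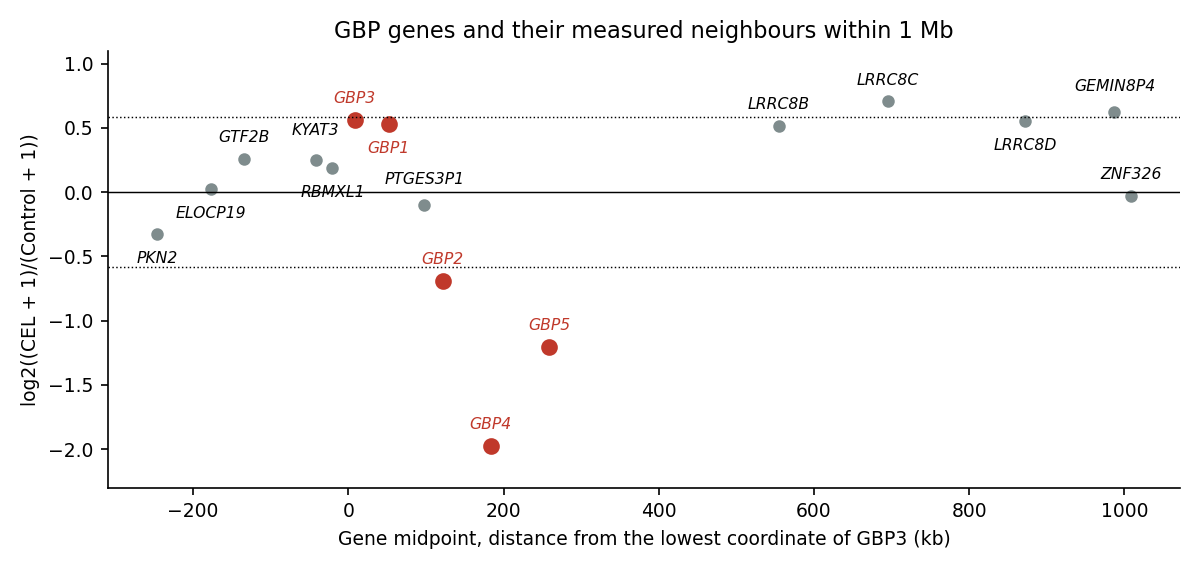
Difference of each GBP gene (red) and each other measured gene within 1 Mb (grey) between CEL and Control on the log2(FPKM + 1) scale, against the distance of the gene's midpoint from the lowest coordinate of GBP3 in kb. Dotted lines mark 1.5-fold. GBP2, GBP4 and GBP5 lie below the lower line, and LRRC8C and GEMIN8P4 above the upper one.

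The genes of the route that induces GBP genes were described from lists, with a count of genes past the 1.5-fold rule and a median log2 fold for each, to be read against 8.97% higher, 10.2% lower and a median of 0.0022 over all measured genes. No interferon gene of 21 was measured: 19, IFNG and IFNB1 among them, were listed at 0 in both libraries, and IFNL1 had 0 reads in CEL and 4 in Control. Of 6 interferon receptor genes 4 were measured, 0 were higher and 1 lower (median -0.10). Of the interferon-gamma receptor chains, IFNGR1 had a ratio of CEL to Control of 1.01 (0.906 to 1.12), and IFNGR2 had 22.1 FPKM in CEL and 23.9 FPKM in Control. The type I receptor chain IFNAR1 had 52.4 FPKM in CEL and 56.4 FPKM in Control. The receptor of type III interferons, IFNLR1, had 2.26 FPKM in CEL and 4.54 FPKM in Control, and this call was lost with a pseudocount or a filter of 5 FPKM. IFNAR2 had 1 read in each library, but 83.2% of its exon bases overlap other genes, so this count is uncertain.

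Of the 6 JAK and STAT genes all were measured, 0 were higher and 1 lower (median -0.22). JAK1 had 38.6 FPKM in CEL and 44.1 FPKM in Control, JAK2 2.82 FPKM in CEL and 3.64 FPKM in Control, and TYK2 97.1 FPKM in CEL and 116 FPKM in Control. STAT3 had 84.1 FPKM in CEL and 91.6 FPKM in Control. STAT2, which acts on ISRE elements downstream of type I interferons, had 25.8 FPKM in CEL and 40.7 FPKM in Control. It was the 1 lower gene, and with the length trend removed or a pseudocount of 5 FPKM none passed. RNA levels do not show how much of these proteins was phosphorylated, and GBP4 was 4.30-fold lower in the same library.

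Of 9 IRF genes 5 were measured, with 0 higher and 0 lower (median -0.26). IRF1, the IRF through which interferon-gamma reaches ISRE elements, had 14.9 FPKM in CEL and 19.9 FPKM in Control (log2 fold -0.39). IRF2, IRF3, IRF5 and IRF7 had log2 folds from -0.29 to -0.01. IRF9, the partner of STAT2, was listed at 0 in both libraries, and 48.4% of its exon bases overlap another gene. Of 12 inhibitors of interferon signalling 11 were measured, 0 were higher and 3 lower (median -0.14). They were the feedback inhibitors USP18 (1.03 FPKM in CEL and 3.05 FPKM in Control) and SOCS1 (1.30 FPKM in CEL and 2.67 FPKM in Control), and PIAS3 (24.9 FPKM in CEL and 39.7 FPKM in Control). The count of 3 was 0 with a pseudocount of 5 FPKM and 1 with a filter at 5 FPKM.

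GBP4 and GBP5 stood among the lowest folds of other genes that interferon-gamma induces. Of 45 such genes 36 were measured, 0 were higher and 9 lower (median -0.31), or 5 lower with a pseudocount of 5 FPKM. CIITA, the activator of MHC class II genes, fell to 1.99 FPKM in CEL, against 7.62 FPKM in Control. The chemokine CXCL11 fell to 1.04 FPKM in CEL, against 4.39 FPKM in Control, and CXCL10 had 0 reads in CEL and 29 in Control. TRIM22, an antiviral ubiquitin ligase, fell to 2.99 FPKM in CEL, against 7.93 FPKM in Control. The 27 genes that did not pass the rule were within 1.5-fold on its scale. PSMB10 was among them only because of the pseudocount, with a plain ratio of CEL to Control of 1.61 (1.07 to 2.45). GBP4, at a log2 fold of -1.97, lay below the lowest of the 36, CIITA at -1.53, and GBP5, at -1.20, between CXCL11 at -1.40 and TRIM22 at -1.16. APOL1, a lipoprotein gene also induced by interferon-gamma, had 53.6 FPKM in CEL and 36.5 FPKM in Control, a log2 fold of 0.54 that is like those of GBP1 and GBP3. APOL1 was named after its value was seen, and 10.8% of all measured genes had a log2 fold as high as that of GBP1 or higher. Nothing is read from this likeness.

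Of 32 antiviral genes induced by type I interferons 30 were measured, 2 were higher and 17 lower (median -0.77). IFIT3, IFIT1 and OASL had the lowest folds, and IFIT3 fell to 31.3 FPKM in CEL, against 107 FPKM in Control. BST2 and IFITM1 were the genes past the rule on the high side, where 5 of 8 alternative settings left 1 or 0 genes. BST2, a tether of budding viruses, had 488 FPKM in CEL and 323 FPKM in Control. Among 19 relatives of the GBP proteins, large or interferon-induced GTPases, 16 were measured, 0 were higher and 2 lower (median -0.15). These were the antiviral GTPases MX2 (2.90 FPKM in CEL and 9.60 FPKM in Control) and MX1 (14.6 FPKM in CEL and 25.1 FPKM in Control). The atlastins ATL1, ATL2 and ATL3, GTPases that shape the endoplasmic reticulum and resemble GBP proteins in structure, had log2 folds from -0.18 to -0.09.

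On the side of the effectors, 10 of 12 genes of inflammasomes and pyroptosis were measured, with 1 higher and 1 lower (median -0.19). CASP4, whose product the GBP coat recruits, rose to 64.1 FPKM in CEL, against 29.6 FPKM in Control, a ratio of 2.17 (1.95 to 2.41). In the same library GBP1 and GBP3 were near 1.5-fold above Control, and GBP4 was 4.30-fold lower. GSDMD, the pore-forming substrate of caspase-4, had 22.7 FPKM in CEL and 25.1 FPKM in Control. IL1B, a cytokine that inflammasomes process, fell to 5.69 FPKM in CEL, against 18.6 FPKM in Control. All 8 genes of prenylation and CaaX processing were measured, 0 past the rule in either direction (median 0.38). PGGT1B, a subunit of the enzyme that attaches the anchor of GBP2 and GBP5, had 10.6 FPKM in CEL and 7.90 FPKM in Control. FNTB, a subunit of the enzyme that attaches the anchor of GBP1, had 5.98 FPKM in CEL and 4.36 FPKM in Control, and 42.1% of its exon bases overlap another gene. The prenylated members GBP1, GBP2 and GBP5 had log2 folds of 0.53, -0.69 and -1.20, so members with and without a CaaX cysteine are found on both sides of 0.

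Of 10 genes of GBP partners and regulators 2 were higher and 2 lower (median -0.08). SQSTM1, an autophagy receptor, rose to 291 FPKM in CEL, against 162 FPKM in Control. SFN, the 14-3-3 protein that holds GBP1 in the cytosol, had 114 FPKM in CEL and 75.4 FPKM in Control, a log2 fold of 0.59 at the edge of the rule. The count of higher genes was 1 in place of 2 with TPM, upper quartile scaling, the length trend removed or a pseudocount of 5 FPKM, and the count of lower genes was 1 with that pseudocount. PIM1, the kinase that marks GBP1 for this binding, fell to 23.7 FPKM in CEL, against 36.8 FPKM in Control. FURIN, the gene of the protease that GBP2 and GBP5 inhibit, had 117 FPKM in CEL and 137 FPKM in Control. All 9 genes of NF-kappaB subunits and inhibitors were measured, 0 higher and 3 lower (median -0.23). TNFAIP3 fell to 4.33 FPKM in CEL, against 20.8 FPKM in Control, and NFKBIA fell to 40.7 FPKM in CEL, against 152 FPKM in Control. Both are feedback targets of NF-kappaB, and TNFAIP3 was 4.81-fold lower (4.05 to 5.74) and NFKBIA 3.74-fold lower (3.43 to 4.09). The rest of the list had smaller differences. The ratio of CEL to Control was 0.622 for RELB, 0.672 for NFKB2 and 0.847 for NFKB1. It was 1.02 for REL, 1.18 for NFKBIE, 1.21 for RELA and 1.39 for NFKBIB. Whether NF-kappaB bears on the level of GBP4 was not tested. Exons overlap other genes over 43.3% of the bases of REL, 23.4% of CIITA, 22.0% of IRF1, 22.0% of SQSTM1 and 32.5% of IFITM1. With no strand setting given, reads of such genes may not have been told apart.

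**Figure D5:**
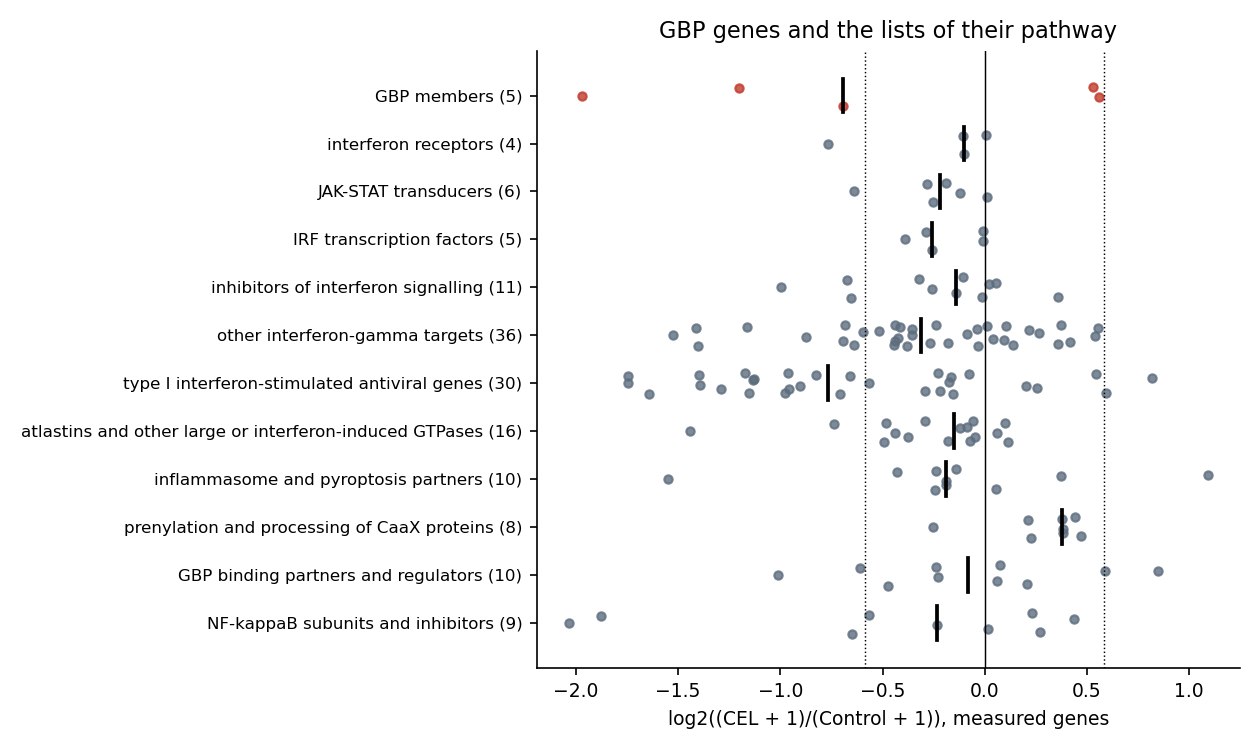
Difference between CEL and Control on the log2(FPKM + 1) scale for the GBP genes (red, top row) and the measured genes of each list (grey, number in brackets), with a black bar at each median and dotted lines at 1.5-fold. The antiviral genes have the lowest median of the lists, -0.77, and the prenylation genes the highest, 0.38. The median of the GBP genes, -0.69, is the value of GBP2, with members on both sides of 0.

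The genes most like each member were found by the distance between log2(FPKM + 1) values over the 2 libraries, and with 2 points such likeness is weak. Among the nearest to GBP4 were NAV2 (9.30 FPKM in CEL and 31.0 FPKM in Control), at a distance of 0.26, and MEGF6, at 0.33. Within a distance of 0.25 lay 115 genes for GBP1, 80 for GBP2, 95 for GBP3 and 12 for GBP5. The nearest were PSMC5, EIF2S1 and DKC1 for GBP1, TMBIM1, EIF5A and ARHGAP29 for GBP3, NCOA7, FBN1 and GAS2L3 for GBP2, and CASZ1, MYH7B and LRRC75B for GBP5. The pair of values of GBP1 was thus shared with more genes than that of GBP5.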

How the data were processed

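RNA of 1 CEL and 1 Control culture of MDA-MB-231 was extracted with TRIzol and made into NEBNext Ultra libraries, per the labels' protocols. HTSeq 0.5.4 and build GRCh38 were used, per the submitters' processing notes. Aligner, annotation release and strand setting: not given in the sources used here. The deposited values are FPKM, computed by the authors, and the other deposited measurement used is the gene length. How that length was derived is not stated. For 61.7% of 12411 genes with several transcripts and the same coordinates in GENCODE 29 it equals their mean transcript length. Among the GBP members it does so for GBP5 only, and GBP2 has 3007 deposited bases against a mean of 2540.5.

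FPKM times length gave whole reads for 100% of 24783 detected genes, at a relative tolerance of 1e-06, at the printed length for 68.7% and at a length shared by both libraries for 31.3%. No count model was run, since 1 library per group leaves no replicate. Unnamed genes (354, with 0.265% of CEL reads and 0.298% of Control reads) were left out. A gene was taken as measured where either library reached 1 FPKM. The pseudocount was 1 FPKM. Ratios of CEL to Control carry exact conditional binomial 95% intervals, and ratios of ratios carry those of the conditional odds ratio. Levels carry exact Poisson intervals and shares Clopper-Pearson ones. All are for counting error only. A count of 0 was taken to allow 3 reads. The members, lists and rules were chosen with earlier results of these data known. Named from each list are up to 4 genes with the largest log2 folds, all measured receptor, JAK-STAT and IRF genes, and the 3 nearest genes by distance per member; a few of these are not reported here. APOL1, PSMB10, BST2, IFITM1, GSDMD, FURIN, FNTB, PGGT1B and the atlastins were named after their values were seen. The steps were tested on simulated data. Python 3.11.15, numpy 2.4.6, pandas 2.3.3, scipy 1.17.1, statsmodels 0.14.6, biopython 1.88 and matplotlib 3.10.9 were used. The alternatives were other pseudocounts (0.1 and 5 FPKM), filters and scalings, a length trend and other gene lengths.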

Additional observations from a re-analysis of the deposited data

How the results depend on the processing

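Under 8 alternatives (pseudocounts of 0.1 and 5 FPKM, no filter and a filter at 5 FPKM, TPM, median centring, upper quartile scaling and removal of the length trend) the count of higher GBP members was 0 in each. The count of lower ones was 3 in each except the pseudocount of 5 FPKM (background 3.56%) and the filter at 5 FPKM (7.42%), which gave 2; the first takes GBP5 under 1.5-fold and the second removes it. No log2 fold of a member changed sign. The ratio of summed GBP reads was 0.978 with upper quartile scaling and 0.759 without GBP3, against 1.02 as given. GBP4 had -1.58 at a pseudocount of 5 FPKM. Other lengths were chosen after seeing the data: per kilobase of main transcript or of coding sequence GBP2 stood above GBP1 in Control, and per kilobase of exon union the order was as deposited. Of 176 list counts under the alternatives, 157 stayed within 1.5 times the count given and 19 did not. Many of the 157 were counts of 0 that stayed at 0, such as the higher counts of the receptors and of the IRF genes. Counts above 0 therefore moved more often than these totals show. Among the 19 were 5 of the 8 for antiviral genes past the rule on the high side and 4 of the 8 for GBP partners on that side. With a pseudocount of 5 FPKM the lower counts of the receptors, the JAK and STAT genes and the inhibitors of interferon signalling were all 0. No paired analysis was possible because each group has 1 library. GBP5, with 53 reads in CEL, is the member that depth limits most.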
